A study of Homo sapiens with 12 samples.

Results

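Ferroptosis is a form of cell death driven by iron-dependent peroxidation of membrane phospholipids, and 4 genes with known roles in holding it back or promoting it were followed, AIFM2, SLC3A2, LPCAT3 and DPP4. They were chosen by gene symbol, and the level of each was read in every library of the table that listed it. The 2 deposited tables have 1810 and 1424 rows, 3234 in all. AIFM2, SLC3A2 and LPCAT3 were in the first, which compares RSL3 with DMSO, and DPP4 was in the second, which compares oeATOH8 with oeCTRL, so each of the 4 has values in 6 of the 12 libraries. Both tables hold genes that the authors called changed, so being listed already reflects the authors' call, and the levels of a gene outside a table were not assessed.

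All libraries came from DU145, an established human prostate cancer cell line, in 4 groups of 3. The RSL3 group was wild-type cells given for 24 h a covalent inhibitor of GPX4, the enzyme that reduces lipid peroxides, and the DMSO group was wild-type cells with solvent. The oeATOH8 group overexpressed ATOH8, a transcription factor of the basic helix-loop-helix family, and the oeCTRL group carried the control for overexpression. The RSL3 dose, the vector and whether replicates were separate cultures are not given in the sources used here, so p-values measure the spread between these libraries, which may be technical. Over the listed genes, reads per library ranged from 2523743 to 3096832 in the RSL3 table and from 1508188 to 2226518 in the ATOH8 table. These sums are not library depths. Of 5 epithelial markers, CDH1 and EPCAM were listed in the RSL3 table and CDH1 and KRT8 in the ATOH8 table, each with reads in all 6 libraries and each lower in the RSL3 or oeATOH8 group (4.34- and 3.01-fold, and 7.55- and 2.58-fold). None of 4 luminal prostate markers was listed. Of 8 markers of other cell types, the macrophage gene CD68 was listed in the RSL3 table (1498 to 4290 normalised reads with RSL3 and 787 to 1607 with DMSO, limma adjusted p = 0.0538) and the globin HBB in the ATOH8 table (1448 to 23528 scaled reads in oeATOH8 and 0 in all oeCTRL libraries). Outside these 8 markers, the globins HBA1 and HBA2 were also higher in oeATOH8 (log2 ratios of group means 11.58 and 10.14). The collagens COL1A2 and COL3A1 were higher too (5.74 and 4.37), while COL4A5, COL7A1, COL8A2, COL14A1 and COL27A1 were lower. These globins and collagens were named after their values were seen. The part of these markers, globins and collagens in the results was not tested. ATOH8 itself had 76508, 72569 and 76043 reads in the oeATOH8 libraries and 13, 10 and 4 in the oeCTRL libraries, as the labels say.

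As background, AIFM2 (also called FSP1) is a reductase that regenerates ubiquinol at the plasma membrane, where it traps lipid radicals without GPX4. SLC3A2 is the heavy chain CD98hc, which pairs with SLC7A11 to import cystine for glutathione and with SLC7A5 to import large neutral amino acids. LPCAT3 is a lysophospholipid acyltransferase that puts polyunsaturated fatty acids, the substrates of peroxidation, into phospholipids, and DPP4 is a cell-surface dipeptidyl peptidase that was linked to NADPH oxidase at the plasma membrane and to ferroptosis.

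On GRCh38, SLC3A2 lies on chromosome 11 from 62856109 to 62888860 (plus strand), AIFM2 on chromosome 10 from 70112271 to 70132825 (minus strand), LPCAT3 on chromosome 12 from 6976185 to 7018508 (minus strand) and DPP4 on chromosome 2 from 161992241 to 162074542 (minus strand, GENCODE). RefSeq promoter windows were found for all 4, with 3 alternative starts for SLC3A2. The 250 bases before the RefSeq start are shown for each gene (GRCh38.p14, 5′ to 3′ on the gene's strand), to show which known response elements stand there. This start differs from the end of the span given above for DPP4 and LPCAT3, where it lies 327 and 32 bases inside the span. For SLC3A2 the window of the third start, 25590 bases inside the span, is printed, chosen because it shares an element with AIFM2. Capitals mark the matches described after the sequences.
AIFM2, chr10:70132826-70133075, minus strand: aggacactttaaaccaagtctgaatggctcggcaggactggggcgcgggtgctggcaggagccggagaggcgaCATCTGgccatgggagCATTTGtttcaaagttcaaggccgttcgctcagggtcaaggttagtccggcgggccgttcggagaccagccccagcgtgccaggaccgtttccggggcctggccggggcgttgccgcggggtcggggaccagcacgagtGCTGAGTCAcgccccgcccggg
SLC3A2, chr11:62881449-62881698, plus strand: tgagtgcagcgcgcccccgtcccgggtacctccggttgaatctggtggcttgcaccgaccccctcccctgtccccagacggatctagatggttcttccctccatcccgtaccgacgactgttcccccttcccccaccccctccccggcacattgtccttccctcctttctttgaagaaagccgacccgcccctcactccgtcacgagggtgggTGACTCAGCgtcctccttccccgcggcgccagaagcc
LPCAT3, chr12:7018477-7018726, minus strand: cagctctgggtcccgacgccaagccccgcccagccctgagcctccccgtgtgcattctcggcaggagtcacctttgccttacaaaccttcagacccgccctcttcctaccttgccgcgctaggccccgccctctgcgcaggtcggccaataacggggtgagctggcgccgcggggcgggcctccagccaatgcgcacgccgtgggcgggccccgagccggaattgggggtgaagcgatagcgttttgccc
DPP4, chr2:162074216-162074465, minus strand: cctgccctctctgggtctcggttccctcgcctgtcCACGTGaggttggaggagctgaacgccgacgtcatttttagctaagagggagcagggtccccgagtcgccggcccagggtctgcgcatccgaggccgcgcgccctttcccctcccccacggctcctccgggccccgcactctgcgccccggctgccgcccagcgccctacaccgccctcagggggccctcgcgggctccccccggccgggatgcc

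On both strands, 4 motifs were searched. The antioxidant response element, TGACNNNGC, is bound by NRF2. It was read as TGACTCAGC in AIFM2 (on the opposite strand, 22 to 14 bases before the start) and with the same letters in SLC3A2 (37 to 29 bases before the third start). These letters also contain TGACTCA, the sequence known as the AP-1 site. The element was in 10.9% of 35116 promoter windows of this length. The E-box, CANNTG, is the core bound by helix-loop-helix factors such as ATOH8. It occurred in AIFM2 (2 matches), in DPP4 (1 match) and in SLC3A2 before its first start (1 match), and it was in 61.8% of windows. CAGCTG (14.0% of windows) and the ATF4 and C/EBP element TGATGNAA (3.14% of windows) were in none of the 6 windows of the 4 genes, and LPCAT3 had no match to any of the 4 motifs. A match is a stretch of letters and was not tested as a binding site.

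RSL3 was set against DMSO to look for regulators of ferroptosis. The suppressor genes SLC3A2 and AIFM2 rose and the promoter gene LPCAT3 fell, and in all 3 the RSL3 and DMSO libraries did not overlap. All 3 passed limma's test, at an adjusted p under 0.05 over the 1732 genes tested. Since 82.0% of the tested genes passed and 86.4% of the listed genes had groups that did not overlap, neither sets these 3 apart from the table. Levels are normalised read counts, the authors' reads divided by a size factor per library, and fold changes are ratios of group means.

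SLC3A2 read 35013, 9582 and 9647 in RSL3 replicates 1, 2 and 3, against 6086, 4675 and 4789.9 in DMSO replicates 1, 2 and 3. RSL3 replicate 1 stood far above the other 5 libraries, and the next 2 RSL3 libraries were close to each other and above all DMSO libraries. The mean was 18081 ± 14664 with RSL3 and 5184 ± 783 with DMSO (SD, n = 3 each), a 3.49-fold difference. The limma log2 fold change was 1.52 (SE 0.48) with an adjusted p of 0.0365. Without replicate 1 of both groups the difference was 2.03-fold, and without RSL3 replicate 1 alone it was 1.85-fold. SLC3A2 ranked 93 by fold among the 958 genes listed as higher.

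AIFM2 read 3841, 2865 and 2841 in RSL3 replicates 1, 2 and 3, against 2477, 1957 and 1908 in the DMSO replicates. Replicate 1 was the highest library in both groups, by 1.35 times the mean of the others with RSL3 and by 1.28 times with DMSO. The mean was 3182 ± 571 with RSL3 and 2114 ± 316 with DMSO (SD, n = 3 each), a 1.51-fold difference. The limma log2 fold change was 0.59 (SE 0.20) with an adjusted p of 0.0405, and without replicate 1 of both groups the difference was 1.48-fold. AIFM2 stood near the low end of the increases, with 16.3% of the genes listed as higher showing a smaller fold.

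LPCAT3 read 673, 844 and 803 in RSL3 replicates 1, 2 and 3, against 1391, 1011 and 1002 in the DMSO replicates. Replicate 1 was the lowest library with RSL3 and the highest with DMSO, so it held the widest gap between treatment and solvent. The mean was 774 ± 89.3 with RSL3 and 1135 ± 222 with DMSO (SD, n = 3 each), 1.47-fold lower with RSL3. The limma log2 fold change was -0.54 (SE 0.20) with an adjusted p of 0.0442, and without replicate 1 of both groups LPCAT3 was 1.22-fold lower. Of the genes listed as lower, 6.69% showed a smaller fold. On the opposite strand, the spans of EMG1 and C1S overlap 50.2% and 71.5% of the LPCAT3 span, introns included. Overlap of exons was not assessed, and the libraries' strandedness is not given. Whether reads of these genes entered the LPCAT3 count was not tested. Neither EMG1 nor C1S was in the RSL3 table.

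**Figure D1:**
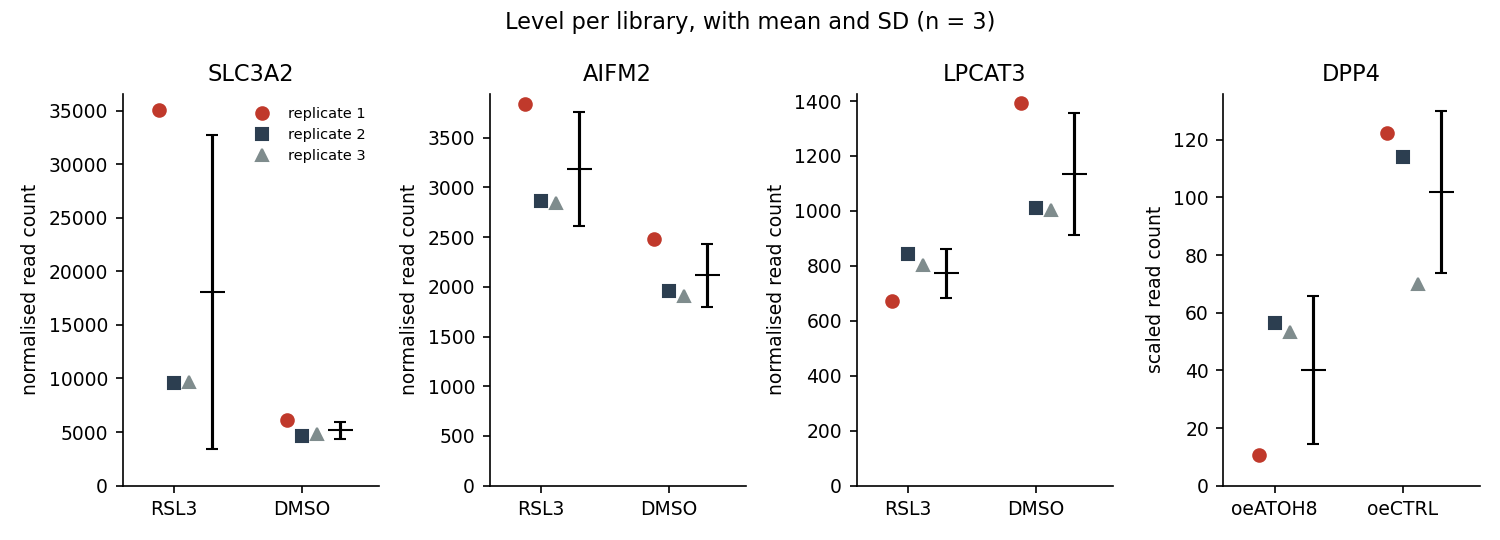
Level of each gene per library (y axes from 0; normalised read count for SLC3A2, AIFM2 and LPCAT3, scaled read count for DPP4), with symbols for replicates 1, 2 and 3 and a bar for the mean and SD of n = 3. SLC3A2 was at 35013 in RSL3 replicate 1 and at 9582 and 9647 in the other RSL3 libraries, and DPP4 was at 10.7 in oeATOH8 replicate 1 and at 56.5 and 53.4 in the other oeATOH8 libraries.

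Set within equal replicate numbers, the 3 genes differed in how even the response was. AIFM2 was 1.55, 1.46 and 1.49 times as high with RSL3 as with DMSO in replicates 1, 2 and 3. Its log2 ratios spanned 0.08, and 4.96% of the 1391 genes in the table that had reads in all libraries and a mean of 50 or more had a smaller span, against a median of 0.44 over those genes. SLC3A2 was 5.75, 2.05 and 2.01 times as high, a span of 1.51, and 96.7% of those genes had a smaller one. LPCAT3 was 2.07, 1.20 and 1.25 times as low, a span of 0.79, with 78.6% below it. The direction was the same in replicate 1 and in replicates 2 and 3 for all 3 genes.

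**Figure D2:**
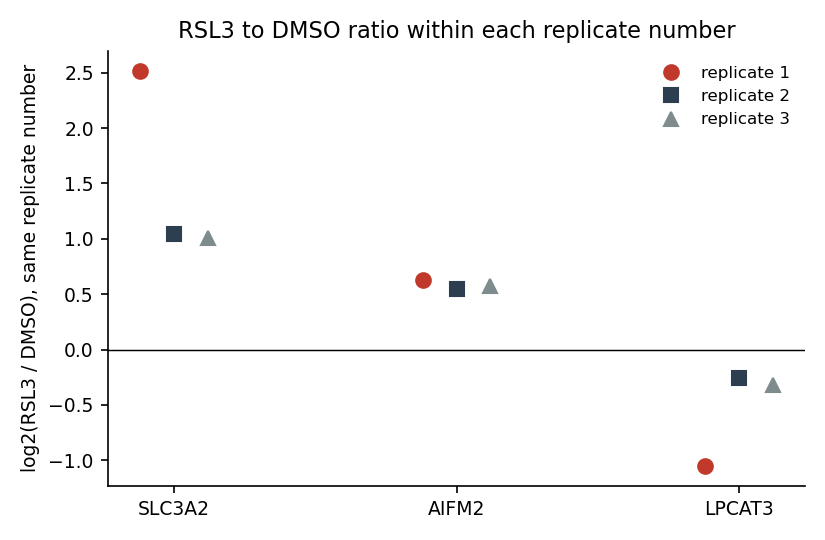
log2 of the RSL3 level over the DMSO level within each replicate number (y axis) for SLC3A2, AIFM2 and LPCAT3. The 3 AIFM2 points lie between 0.55 and 0.63, while replicate 1 lies at 2.52 for SLC3A2 and at -1.05 for LPCAT3, away from the other replicates.

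Replicates 2 and 3 were nearly as alike as repeats of 1 library, with a chi-square over its degrees of freedom of 1.81 with RSL3 and 1.65 with DMSO, against 60.7 to 106 for pairs with replicate 1. With replicates 2 and 3 averaged and counted as 1 sample, no call remained (limma adjusted p = 0.134 for SLC3A2, 0.189 for AIFM2 and 0.175 for LPCAT3), and with all 59788 annotated genes counted as tests the adjusted p was 1 for each. All 3 calls also ended without DMSO replicate 2 or 3 (adjusted p from 0.114 to 0.134), AIFM2 ended without RSL3 replicate 2 or 3 (0.0603 and 0.0597), and LPCAT3 ended whichever of the 6 libraries was left out (0.0638 to 0.119). Most of the table lost its calls too. With averaging 3 of 1732 genes passed, and with all annotated genes counted 0 did. Without DMSO replicates 2 and 3, 6 and 8 of 1744 passed, and without RSL3 replicates 2 and 3, 352 of 1783 and 317 of 1780. Losing a call in these runs thus does not set the 3 genes apart. Without RSL3 or DMSO replicate 1, 1000 of 1783 and 1500 of 1785 passed. To scale libraries over the listed genes is to take these genes as unchanged on balance. The authors called all of them changed, so such scaling cannot decide a call. It shifted the median log2 fold change of all genes by -0.29 to -0.47. The share of higher calls went to 24.2% to 30.0%, against 52.6% on the authors' scale. By totals, TMM and DESeq2 size factors, 154, 278 and 259 of 1732 tested genes passed as higher, and 482, 648 and 639 as lower. On those scales AIFM2 was higher by a log2 fold change of 0.11 to 0.30 and did not pass (adjusted p from 0.0629 to 0.251), SLC3A2 did not pass on the scale of equal totals (0.0532), and LPCAT3 was lower by -0.83 to -1.01 and passed on all 3 scales.

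The libraries of the ATOH8 table were compared to ask which genes move when ATOH8 is raised. DPP4 fell. It had 11, 55 and 55 reads in oeATOH8 replicates 1, 2 and 3, against 126, 110 and 68 in oeCTRL replicates 1, 2 and 3. The oeATOH8 libraries were all below the oeCTRL libraries, with replicate 1 the lowest of them and oeCTRL replicate 3 the nearest to them. As scaled read counts the mean was 40.2 ± 25.6 in oeATOH8 and 102 ± 28.1 in oeCTRL (SD, n = 3 each), 2.54-fold lower in oeATOH8 and 1.86-fold lower without oeATOH8 replicate 1. The edgeR log2 fold change was -1.35 (SE 0.48) with an adjusted p of 0.0176 over the 1424 listed genes. Of these genes 100% passed, 41.4% higher and 58.6% lower, and 99.6% had groups that did not overlap, so passing here adds nothing to the authors' call. With DESeq2 size factors over the listed genes 1007 genes passed, 589 higher and 418 lower, so that 58.5% of calls were higher.

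DPP4 was among the lower-abundance genes of its table, with 19.9% of listed genes at a lower mean. With all 75204 annotated genes and assembled loci counted as tests its adjusted p was 0.93, while 82.0% of listed genes passed by that count. The call also ended without oeCTRL replicate 1 or 2 (adjusted p = 0.0634 and 0.0575), and with DESeq2 size factors over the listed genes, which shifted all log2 fold changes by a median of 0.91, DPP4 stood at -0.43 (adjusted p = 0.417). In oeATOH8, replicate 1 differed from replicates 2 and 3 by a chi-square over its degrees of freedom of 39.8 and 30.0, against 13.0 between replicates 2 and 3, and the globin HBB was at 23528 scaled reads in replicate 1, against 1448 and 5427 in replicates 2 and 3. The library with the lowest DPP4 was thus the one with the most HBB, and the part of these differences in the DPP4 value was not tested. An antisense gene, AC008063.1, overlaps 1.56% of the DPP4 span and was in neither table. In RNA from bulk cells, fewer cells with the transcript and less transcript per cell cannot be told apart.

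**Figure D3:**
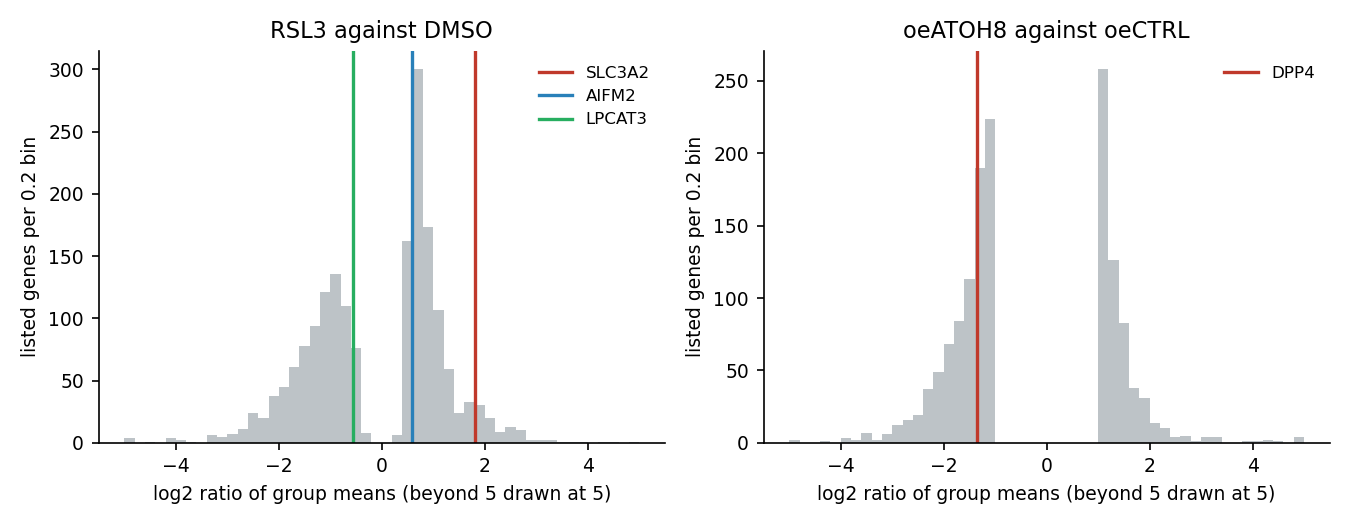
Histograms of the log2 ratio of group means over all listed genes (x axis, RSL3 over DMSO on the left and oeATOH8 over oeCTRL on the right, bins of 0.2), with lines at the 4 genes. AIFM2 at 0.59 and LPCAT3 at -0.55 lie near the inner edges of the listed genes, SLC3A2 at 1.80 lies in the upper tail, and DPP4 at -1.34 lies within the bulk of the lower genes.

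The wider ferroptosis gene sets were read in the same tables, of which the RSL3 table has 1810 rows against 59788 annotated genes. How many of these genes were expressed and could have been listed is not known, so the 2 numbers give no expected share for a gene set. Of 30 suppressor genes, 4 were in the RSL3 table, all listed as higher, and 3 passed (SLC3A2, AIFM2 and FTH1, the ferritin heavy chain, at 2.36-fold with a limma adjusted p of 0.0407). FTL, the ferritin light chain, was at 2.00-fold and missed the threshold (0.0658). On the other 3 scalings, by totals, TMM and DESeq2 size factors over the listed genes, 0, 1 and 1 of them passed. FTH1 and AIFM2 then passed on none (FTH1 adjusted p from 0.0513 to 0.0568, log2 fold change 0.80 to 0.99, against 1.27). The median log2 ratio of the 4 was 1.12, against 0.50 over all listed genes and 0.81 over the 958 listed as higher. Of 41 promoter genes, 2 were listed and passed, LPCAT3 as lower and HMOX1, the haem oxygenase that frees iron, as higher (4.76-fold), and both passed on the other 3 scalings too. For comparison, 43.1% of tested genes passed as higher and 38.9% as lower on the authors' scale. On the other 3 scalings 154, 278 and 259 of 1732 tested genes passed as higher, and 482, 648 and 639 as lower. Missing the threshold there thus does not set the suppressor genes apart.

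Among genes related to SLC3A2, 1 of 9 heteromeric amino acid carriers was listed. This was its partner SLC7A5, with 42000 in RSL3 replicate 1 and 17368 and 17619 in RSL3 replicates 2 and 3, against 12206, 10567 and 10779 in DMSO. SLC7A5 rose 2.29-fold (limma adjusted p = 0.0383), with replicate 1 the highest in both groups, as for SLC3A2. It passed with TMM (0.0445) and missed the threshold with totals and DESeq2 size factors (0.0523 and 0.0524). SLC7A11, the partner that imports cystine, was in neither table. Among 19 quinone genes and AIFM2 relatives, 3 were listed and all 3 passed as higher on the authors' scale, namely the quinone reductase NQO2 (2.04-fold, 1214 ± 590 with RSL3 and 595 ± 159 with DMSO, SD, n = 3 each, limma adjusted p = 0.0421) and the ubiquinone synthesis genes COQ9 (1.65-fold, limma adjusted p = 0.0442) and COQ8A. None of these 3 passed on the other 3 scalings, where the log2 fold change was 0.48 to 0.67 for NQO2 (0.96 on the authors' scale, adjusted p from 0.0638 to 0.0689), 0.22 to 0.41 for COQ9 (0.69, adjusted p from 0.0765 to 0.0829) and 0.26 to 0.44 for COQ8A (0.73, adjusted p from 0.095 to 0.165). On those scalings 154, 278 and 259 of 1732 tested genes passed as higher, so this does not set them apart. None of 20 genes of phospholipid remodelling beside LPCAT3 was in the RSL3 table. Of 21 DPP4 relatives and NADPH oxidase subunits, DUOX1, which makes hydrogen peroxide, was listed and fell 2.52-fold (17.4, 17.8 and 19.7 with RSL3, against 46.2, 55.7 and 36.7 with DMSO, limma adjusted p = 0.0236).

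In the ATOH8 table all the listed genes of these sets fell. The suppressor list had 1 member, SCD, which desaturates fatty acids (2.79-fold lower), and the promoter list had DPP4 and HMOX1 (2.31-fold lower). HMOX1 was thus higher with RSL3 against DMSO and lower in oeATOH8 against oeCTRL. Phospholipid remodelling had 3 of 20, namely LPCAT1, a relative of LPCAT3 (2.35-fold lower, 4958 ± 291 in oeATOH8 and 11674 ± 215 in oeCTRL, SD, n = 3 each), the fatty acid activating enzyme ACSL6 (3.77-fold lower) and the phospholipase PLA2G4A (3.90-fold lower). AIFM3, a relative of AIFM2, was 2.33-fold lower, and DUOX2, which makes hydrogen peroxide, was the listed gene of the NADPH oxidase set. Over all listed genes 58.6% passed as lower, and with DESeq2 size factors 418 of 1424 did. With those size factors AIFM3 (log2 fold change -0.31, adjusted p = 0.194) and DPP4 missed the threshold, and the other listed genes of these sets passed at smaller changes, from -0.30 for HMOX1 to -1.05 for PLA2G4A and DUOX2. No gene named from these sets changed direction under the other scalings of its table.

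**Figure D4:**
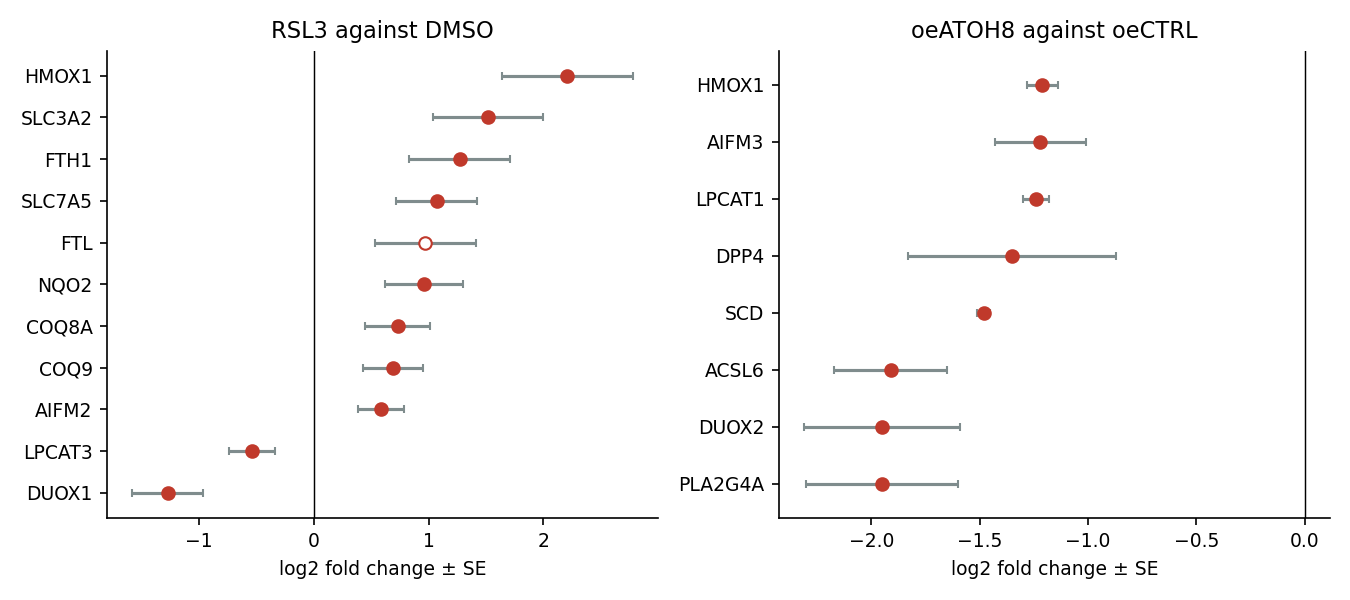
log2 fold change with its SE (x axis) for the listed genes of the ferroptosis and related sets, limma for RSL3 against DMSO on the left and edgeR for oeATOH8 against oeCTRL on the right, filled where the adjusted p over listed genes was under 0.05 on the authors' scale (left) or the scale centred on the gap between higher and lower genes (right). In the left panel LPCAT3 at -0.54 and DUOX1 at -1.27 lie below 0 and FTL is open, and in the right panel all genes lie below 0.

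The genes with the most similar profile over the 6 libraries were found by the root mean square difference of log2 levels centred on DMSO or oeCTRL, among named genes with a mean of at least 50. For AIFM2 these were NUBP2 (difference 0.021), TXNRD2 (0.023) and ATF6B (0.030), against a median of 0.44 over 1370 genes. NUBP2 works in iron-sulphur cluster assembly, TXNRD2 is the mitochondrial thioredoxin reductase and ATF6B is a sensor of stress in the endoplasmic reticulum. For SLC3A2 they were TMEM198 (0.046), LINC00999 (0.051) and CATSPER1 (0.082), with a median of 0.87. All 3 had RSL3 replicate 1 at least 3 times as high as the other RSL3 libraries, as SLC3A2 had. This likeness follows from choosing them by profile over these same libraries and is not a separate result. For LPCAT3 they were ATG7, an autophagy enzyme (0.056), CCDC134 (0.070) and FHL2 (0.072), with a median of 0.88. For DPP4 the nearest were NECAB1 (0.391), PPFIA4 (0.436) and MUC3A (0.499), with a median of 1.06 over 1053 genes, a wider difference than for the nearest genes of the other 3. DPP4 was read in other libraries than those 3 genes and had only 11 to 126 reads per library. The differences are thus not like for like, and the part of read depth in them was not tested.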

How the data were processed

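RNA of 12 DU145 libraries was compared as RSL3 against DMSO and oeATOH8 against oeCTRL, with columns NC and OE read as oeCTRL and oeATOH8. The submitters' processing notes list the tools fastp, HISAT2, StringTie and DESeq2, with no version and no role given, and the build hg38 (GRCh38). The annotation, filters and strandedness are not given in the sources used here. The deposited RSL3 table holds a signal per gene and library; all values were whole multiples of a step per library within 0.001, as the authors' reads divided by a size factor (0.691 to 1.31) are, so whole reads were recovered. The deposited ATOH8 table holds read counts per gene as the authors counted them.

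RSL3 rows were named by RefSeq span on the same strand (1064 equal, 546 with at least 0.5 overlap of the longer span) or GENCODE (162), and 38 stayed unnamed. Of 1152 Ensembl identifiers, 1146 had a symbol. RSL3 values were tested with limma (3.58.1, trended variance) on log2(value + 1), and counts with edgeR's quasi-likelihood test (4.0.16) under R 4.3.3. In both, low genes were left out by filterByExpr of edgeR, which kept genes with at least 15 reads in total. In as many libraries as the smallest group holds, these also had about 10 reads or more at the median library size. edgeR and DESeq2 (1.42.0) on the recovered reads were alternatives. ATOH8 libraries were scaled by the median ratio within a group. No listed gene had a log2 ratio between -0.97 and 1.03, and a shift between the groups placed the middle of this gap at 0, which assumes symmetric fold limits of the authors. All p-values are two-sided, adjusted by Benjamini-Hochberg with a threshold of 0.05 over listed genes, or, as an upper bound, with 59788 or 75204 annotated genes as tests. SE for edgeR is the log2 fold change over the square root of F. Code was tested on simulated data.

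In the RSL3 table, the deviations of same-numbered libraries from their group means had correlations of 0.68, 0.61 and 0.61. Replicate 1 stood apart, with -0.627 as its highest correlation with another number. It was thus paired across the groups by the data and not by the labels. Replicates 2 and 3 were not told apart (0.633 and 0.581 with another number), so their pairing is not known. The main limma fit held no term for replicates. The members, lists and tests were chosen with earlier results of these data known. The rule for named genes took the 4 genes, up to 6 genes of the lists per table by smallest adjusted p with values, and the 3 genes nearest in profile. Beyond this rule, values are also given for FTL, COQ8A, DUOX2 and the cell type markers. No protein sequences were used. A gene of the promoter list is not reported here.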

Additional observations from a re-analysis of the deposited data

How the results depend on the processing

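None of the 4 genes changed direction under any alternative run, while the balance of calls over all listed genes did. It was 747 higher and 674 lower in the RSL3 table, against 154 and 482 with totals, 278 and 648 with TMM and 259 and 639 with DESeq2 size factors. It also turned without RSL3 replicate 1 (475 and 525), 2 (144 and 208) or 3 (127 and 190). In the ATOH8 table it was 589 higher and 835 lower, against 589 and 418 with DESeq2 size factors. In the RSL3 table, edgeR or DESeq2 on recovered reads, a pseudocount of 0.5 or 10 and no filter on low values ended no call of SLC3A2, AIFM2 or LPCAT3. Nor did the replicate block (log2 fold changes 1.52, 0.59 and -0.54, 1720 listed genes past the threshold against 1421), a term for replicate 1 or leaving replicate 1 out of both groups. With that term 1729 of 1732 tested genes passed, and without replicate 1 of both groups 1758 of 1778. A kept call there thus does not set the 3 genes apart. These runs also counted replicates 2 and 3, nearly as alike as repeats of 1 library, as separate samples. The block's limma adjusted p was 0.00715 for SLC3A2, 0.00299 for AIFM2 and 0.0295 for LPCAT3, with replicates 2 and 3 counted as separate samples. With libraries scaled to equal totals over listed genes, SLC3A2 was at 1.05 and AIFM2 at 0.11, with 636 genes past. With TMM AIFM2 was at 0.30 (926 genes), and with DESeq2 size factors at 0.28 (898 genes). With all annotated genes counted as tests, SLC3A2 (1.52), AIFM2 (0.59) and LPCAT3 (-0.54) missed the threshold and 0 genes passed by limma (1554 at an unadjusted p under 0.05). By edgeR so counted the values were 1.80, 0.59 and -0.55 with 0 genes past, and with the replicate block 1.52, 0.59 and -0.54 with 2. With replicates 2 and 3 averaged, an alternative chosen after seeing the data, as were the last 2 and the unscaled counts below, they were 1.77, 0.60 and -0.67 with 3 genes past. Leaving out each library in turn gave 0.902 to 1.836 for SLC3A2, 0.442 to 0.705 for AIFM2, -0.622 to -0.386 for LPCAT3, and 6 to 1500 genes past. The fewest were 6 and 8, without DMSO replicates 2 and 3, with 352 and 317 without RSL3 replicates 2 and 3. The cause of these changes was not tested.

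In the ATOH8 table DPP4 was at -0.434 with DESeq2 size factors over listed genes and at -1.345, not passing, with all genes counted as tests. Leaving out each library gave -1.668 to -0.893, and 1417 to 1423 genes past. Replicate numbers did not pair these libraries (correlations of 0.041, 0.053 and 0.074, each library nonetheless closest to its own number). With the replicate block DPP4 was at -1.466 (adjusted p = 0.00824) and all 1424 genes passed, as in the fit without it. DESeq2, limma, no filter, totals, TMM and unscaled counts kept the DPP4 call. DPP4 had the fewest reads of the 4 genes, with 11 in oeATOH8 replicate 1, and the part of read depth in its call was not tested.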

Other observations

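Genes on either side of AIFM2 were also in the RSL3 table and passed as higher on the authors' scale. Of all tested genes 82.0% passed, 43.1% as higher, so passing does not set these neighbours apart. MACROH2A2, a histone variant gene on the opposite strand whose end overlaps that of AIFM2 by 12 bases, was 1.45-fold higher with RSL3 than with DMSO (limma adjusted p = 0.036). TYSND1, a peroxisomal protease gene on the same strand that ends 5155 bases before the AIFM2 start, was 1.58-fold higher (limma adjusted p = 0.0407). No such listed neighbour within 10 kb was found for SLC3A2 or LPCAT3. On the other 3 scalings neither MACROH2A2 nor TYSND1 passed (adjusted p from 0.0763 to 0.676 for MACROH2A2 and from 0.0561 to 0.0782 for TYSND1), with log2 fold changes of 0.07 to 0.25 and 0.17 to 0.35. There, 154, 278 and 259 of 1732 tested genes passed as higher. Both neighbours were chosen after their values were seen.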
